A study of Mus musculus with 192 samples.

Results

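Hcrt and Mch are the genes of 2 neuropeptides of the lateral hypothalamus, and they were chosen by name from the 43 target genes counted in the brain of L44 mice. Hcrt is RefSeq NM_010410.2, and Mch is listed by RefSeq under the symbol Pmch (NM_029971.2). Counts of barcoded probes from the nCounter platform, which counts mRNA molecules without amplification, were analysed in 192 pools of RNA made from 341 tissue samples, with 1 or 2 mice per pool. The tissue blocks were the hindbrain with the cerebellum (46 pools), the midbrain with the forebrain and hypothalamus (49 pools), the left cortex (48 pools) and the right cortex (49 pools). All mice were males on the FVB/n background. L44 mice carry a transgene for triprolyl-human amylin, a human form of the islet hormone amylin, under the rat insulin 2 promoter. Hemizygous (HEM) and homozygous (HOM) mice were compared with nontransgenic (NON) mice, which were littermates or age-matched animals. Mice were taken at T1 (99 to 101 days of age, median 100, before diabetes), at T2 (onset of diabetes in the transgenic mice, 90 to 286 days, median 171) or at T3 (400 to 408 days, median 402). Each mouse was collected in the morning (AM) or in the afternoon (PM). The 12 HEM pools of T1 numbered 1/2, 3/4 and 5/6 carry no collection time and stayed out of the tests except where they are said to be added, which left 180 pools. A pool is named by the numbers of its samples, so that pool 6/9 combined samples 6 and 9. The source field of the T2 right cortex HOM pools calls them hemizygous, whereas their titles and genotype field call them homozygous, and the latter was used.

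Hcrt encodes prepro-orexin, the precursor that is cut into the orexins (hypocretins), peptides that maintain wakefulness, raise energy expenditure and drive the search for food. Mch encodes the precursor of melanin-concentrating hormone, a peptide that promotes feeding, weight gain and sleep. The neurons that make the peptides lie side by side in the lateral hypothalamus but are separate populations, and their axons reach most of the brain, so that peptide can be far from the cell bodies while the mRNA stays mostly near them. Both populations respond to the fed state, among others through leptin, insulin and glucose. In bulk tissue, fewer cells of a type and less RNA per cell cannot be told apart.

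The sequence upstream of each start site is shown because the mRNA levels of both genes were compared across regions and groups and varied together between pools. It is given for the 250 bases before the start site, from RefSeq on GRCm38.p6. Hcrt lies on the minus strand of chromosome 11 (chr11:100762932-100763181) and Pmch on the plus strand of chromosome 10 (chr10:88090822-88091071). Capitals mark matches to TATAAA, the core of a TATA box, and to TTCNNNGAA, the element of STAT proteins, which carry the leptin signal to the nucleus.
Hcrt: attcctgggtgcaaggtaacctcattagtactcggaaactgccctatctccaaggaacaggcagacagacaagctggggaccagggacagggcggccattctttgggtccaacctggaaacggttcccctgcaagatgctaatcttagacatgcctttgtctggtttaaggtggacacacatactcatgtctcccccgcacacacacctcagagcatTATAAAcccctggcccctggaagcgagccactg
Mch (Pmch): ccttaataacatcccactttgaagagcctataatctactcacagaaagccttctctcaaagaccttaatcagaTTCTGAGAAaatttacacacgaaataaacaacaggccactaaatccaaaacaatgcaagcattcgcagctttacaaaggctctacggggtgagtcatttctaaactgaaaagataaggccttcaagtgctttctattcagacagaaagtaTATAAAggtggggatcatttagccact
TATAAA stood 33 bases before the start of Hcrt and 27 bases before that of Pmch, and 12.4% of 32851 RefSeq promoters of this length hold it on either strand. TTCNNNGAA was found in the Pmch window, 177 bases before the start, and in 7.02% of all promoters, and these letters are not in the Hcrt window. GTAAACA, a core of forkhead factors that respond to insulin, is in neither window and in 3.17% of all promoters. A match is a description of the letters and does not show that a factor binds there.

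To obtain a normalised count, the raw count was divided by the geometric mean of the pool's 3 reference genes and rescaled to the average of this mean across all 192 pools. Depth varied least in the midbrain pools, with 125321 to 314759 counts summed over the target genes (median 245328). Hindbrain pools had 3489 to 252890 (median 151091), those of the left cortex 51446 to 490984 (median 278654), and those of the right cortex 90264 to 525264 (median 414121). Background in a pool was the mean plus 2 SD of its 8 negative control probes, and its median was 15.5 counts for hindbrain pools, 21.5 for midbrain pools, 22.3 for left cortex pools and 28.7 for right cortex pools. In 3 hindbrain pools of T3 (NON PM 5/6, NON AM 7 and HOM AM 9) the reference genes were at most 511 counts, and Hcrt was counted 3, 2 and 1 times. Neither gene was above background in these 3 pools.

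The first question was in which block the mRNA of the 2 peptides lay. Both mRNAs were far higher in the midbrain block, which takes in the hypothalamus, than in the other blocks. In the midbrain, Hcrt had 427 to 1376 normalised counts (median 763) over the 49 pools, from raw counts of 266 to 1175, and it was above background in 49 of 49. Outside the midbrain, hindbrain pools had a median Hcrt of 25.2 (8.12 to 146, above background in 37 of 46 pools), left cortex pools 26.7 (7.88 to 53.3, 33 of 48) and right cortex pools 27.7 (8.87 to 43.3, 32 of 49). The lowest midbrain pool was thus above the highest pool of every other block.

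Mch in the midbrain had 13341 to 36209 normalised counts (median 23024) and was above background in 49 of 49 pools. In the other blocks its median was 138 for hindbrain pools (72.1 to 504, above background in 43 of 46), 95.3 for left cortex pools (35.2 to 168, 48 of 48) and 104 for right cortex pools (54.5 to 158, 49 of 49). Here too the midbrain pools did not overlap with those of any other block. Mch was therefore measurable in nearly all pools of all blocks, whereas Hcrt outside the midbrain was often not distinguishable from background at this depth.

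**Figure D1:**
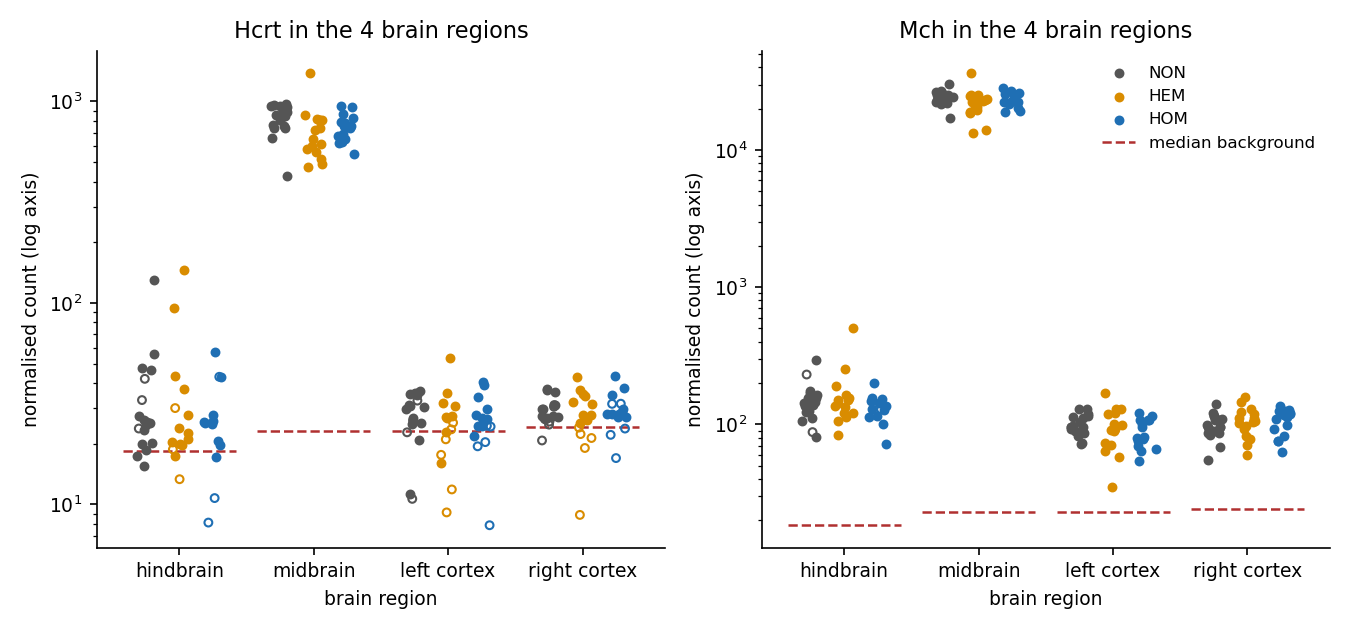
Normalised counts of Hcrt and Mch (log axis) in every pool, by brain block and genotype, with open circles for pools at or under their background and a dashed line for the median background of the block. The midbrain pools lie above every pool of the other blocks, and Hcrt was above background in only 37 of 46 hindbrain, 33 of 48 left cortex and 32 of 49 right cortex pools.

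The differences between blocks were tested in NON mice, the controls, with 18 pools per block. The NON midbrain pools held 427 to 966 normalised counts of Hcrt (median 849), against 15.4 to 130 in hindbrain pools (median 25.4), 10.7 to 36.6 in left cortex pools (median 30.02) and 20.8 to 37.2 in right cortex pools (median 27.5). For Mch the NON midbrain pools held 17184 to 30302 (median 24164), against 80.9 to 295 (median 141), 71.7 to 130 (median 96.0) and 54.5 to 141 (median 95.9). No NON midbrain pool overlapped with any pool of another block for either gene.

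In edgeR's quasi-likelihood test, adjusted by Benjamini-Hochberg, Hcrt was higher in the NON midbrain than in the hindbrain by a log2 fold change of 4.55 (SE 0.148, adjusted p = 3.79e-56), which is 23.4-fold (95% confidence interval 19.1 to 28.7). Mch was higher by 7.29 (SE 0.122, adjusted p = 4.79e-87), or 157-fold (133 to 186). Of the 43 genes, 88.4% were called at an adjusted p under 0.05 in either direction in that comparison, but 23.3% were called with a log2 fold change beyond 1. The corresponding differences from the left cortex were 4.88 for Hcrt (29.5-fold, adjusted p = 1.17e-60) and 7.92 for Mch (243-fold, adjusted p = 2.13e-90), where 76.7% of the genes were called by adjusted p and 27.9% beyond 1. Those from the right cortex were 4.81 for Hcrt (28.0-fold) and 7.94 for Mch (246-fold), where 74.4% and 30.2% were called. As part of the counts outside the midbrain is background, these folds understate the difference in the mRNA.

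Ordered by the difference between NON midbrain and hindbrain, Mch was 1st and Hcrt 2nd of the 43 genes, and Ramp3, a subunit of amylin receptors, followed at 2.19. Mch also led in the difference between the midbrain and the mean of both cortices (7.93). Calcr and Hcrt followed, and no order is read between them, since Calcr was above background in 5 and 9 and Hcrt in 14 and 12 of 18 NON pools of the left and right cortex. Calcr encodes the calcitonin receptor, the core of amylin receptors. In HEM mice, Hcrt was called higher in the midbrain by 4.92, 4.75 and 4.69 against hindbrain, left cortex and right cortex, and Mch by 7.40, 8.04 and 7.84, where 81.4%, 74.4% and 76.7% of genes were called in either direction. In HOM mice these values were 4.98, 4.85 and 4.72 for Hcrt and 7.54, 8.04 and 7.79 for Mch, where 81.4%, 69.8% and 72.1% were called.

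The hypothalamic label of the block was checked with other genes of defined hypothalamic nuclei. Agrp, a feeding peptide of the arcuate nucleus, had a NON median of 115 normalised counts in the midbrain, against 38.4 in hindbrain, 27.4 in left cortex and 27.8 in right cortex pools. Pomc, the precursor of the satiety peptide α-MSH, had 295, 138, 56.6 and 53.1 in the same order. Hdc, the histamine-synthesising enzyme of the tuberomammillary nucleus, had 269, 219, 60.0 and 56.3. All 3 genes had their highest median in the midbrain, with a far smaller distance to the hindbrain than Hcrt and Mch. Unlike Hcrt and Mch, their NON midbrain and hindbrain pools overlapped. The highest hindbrain pool was above every midbrain pool, at 420 against a midbrain maximum of 159 for Agrp. For Pomc these maxima were 437 and 424, and for Hdc 403 and 343. Every NON cortex pool was under the lowest NON midbrain pool for all 3 genes.

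Among the 5 genes of the hypothalamic feeding list (Agrp, Npy, Pomc, Cart and Mc4r), 5 were called higher in the NON midbrain than in the hindbrain, with a median log2 fold change of 1.17 beside 0.33 over all genes. Against the left cortex 4 were higher and 1, Npy, was lower (median 1.65, all genes -0.01), and against the right cortex likewise (median 1.76, all genes 0.07). Of Hdc and the histamine receptor Hrh1, 2 were higher than in the hindbrain (median 0.55) and 1 was higher than in each cortex. Of Lepr, Lepr-b and Insr, the leptin and insulin receptors, 2, 2 and 1 were higher than in the hindbrain, left cortex and right cortex. These counts stand beside 88.4%, 76.7% and 74.4% of all genes called in either direction, and 74.4%, 39.5% and 39.5% called higher.

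Outside the midbrain the levels were low, and the order of the blocks was less firm. The left and right NON cortices did not differ beyond the spread between pools, at -0.07 for Hcrt and 0.02 for Mch (adjusted p = 0.960 for both, edgeR, with 6.98% of genes called). Mch was higher in the NON hindbrain than in the mean of both cortices by 0.64 (SE 0.0889, adjusted p = 1.45e-10, edgeR), where 88.4% of genes were called, but was at -0.091 when scaled by the positive control probes. In HEM mice Mch was higher by 0.54 (adjusted p = 5.35e-07, edgeR, 81.4% of genes called), and HOM mice had a difference of 0.37 (adjusted p = 0.000732, edgeR, 76.7% called). Hcrt was higher by 0.29 in NON (SE 0.140, adjusted p = 0.0437, edgeR), but was at -0.20 in HEM and in HOM mice, with adjusted p = 0.254 and adjusted p = 0.290. Scaled by the positive control probes, Hcrt in NON was called the other way (-0.44, adjusted p = 0.0193, edgeR). With the pool of mice as a block, since the same mice gave all blocks, the NON value of Hcrt was 0.10 and not called (adjusted p = 0.595). It was called in 39 of 54 fits that left out 1 pool, and without T1 NON AM pool 2/7, at 130 normalised counts in the hindbrain, it was -0.01 (adjusted p = 0.951, edgeR).

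The next question was whether the transgene went with another level of either peptide mRNA in the midbrain. Hcrt was lower in HEM than in NON mice by 17.7%, and it was the only gene called lower of the 43. Mch was not called in either genotype, and neither was Hcrt in HOM mice. Over pools of known collection time, Hcrt had 427 to 966 normalised counts in NON (median 849, mean 825 ± 134 SD, n = 18), 486 to 859 in HEM (median 650, mean 673 ± 125, n = 13) and 549 to 944 in HOM (median 755, mean 747 ± 115, n = 15). The ranges overlapped, with the lowest pool in NON.

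At T1 PM, the NON pools held 947, 763 and 966 normalised counts of Hcrt, the HEM pools 563 and 811, and the HOM pools 740 and 630. Both HOM pools were under every NON pool, as was 1 of the HEM pools. At T1 AM, where HEM had no pool, NON held 843 and 841 and HOM 862 and 938, so that both HOM pools were the higher ones.

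At T2 AM, NON held 942 and 882, HEM 859 and 612, and HOM 755 and 783 normalised counts of Hcrt, and all 4 transgenic pools were under both NON pools. At T2 PM, NON held 883, 811, 855, 943 and 756, HEM 816, 804 and 740, and HOM 789, 676 and 686. The groups overlapped there, with 1 HEM and 2 HOM pools under every NON pool.

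At T3 AM, NON held 738, 961 and 427, HEM 486, 577, 650 and 600, and HOM 621, 823, 944, 654 and 756 normalised counts of Hcrt. The NON pools were the most spread out of these groups, as pool 10, with RNA of 1 mouse, was lower and pool 7, also 1 mouse, was higher than all other T3 pools. At T3 PM, NON held 737, 905 and 660, HEM 516 and 719, and HOM 549 in its 1 pool. In all, 13 of 13 HEM pools were below the NON median of their own time point and collection time, as were 10 of 15 HOM pools, and 5 HEM and 7 HOM pools were below every NON pool of it. For Mch, which was not called, 4 HEM and 5 HOM pools were below every NON pool of their group. With few NON pools per group, some pools fall below all of them without any difference. The share over all genes was not counted, so these counts are a description only.

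**Figure D2:**
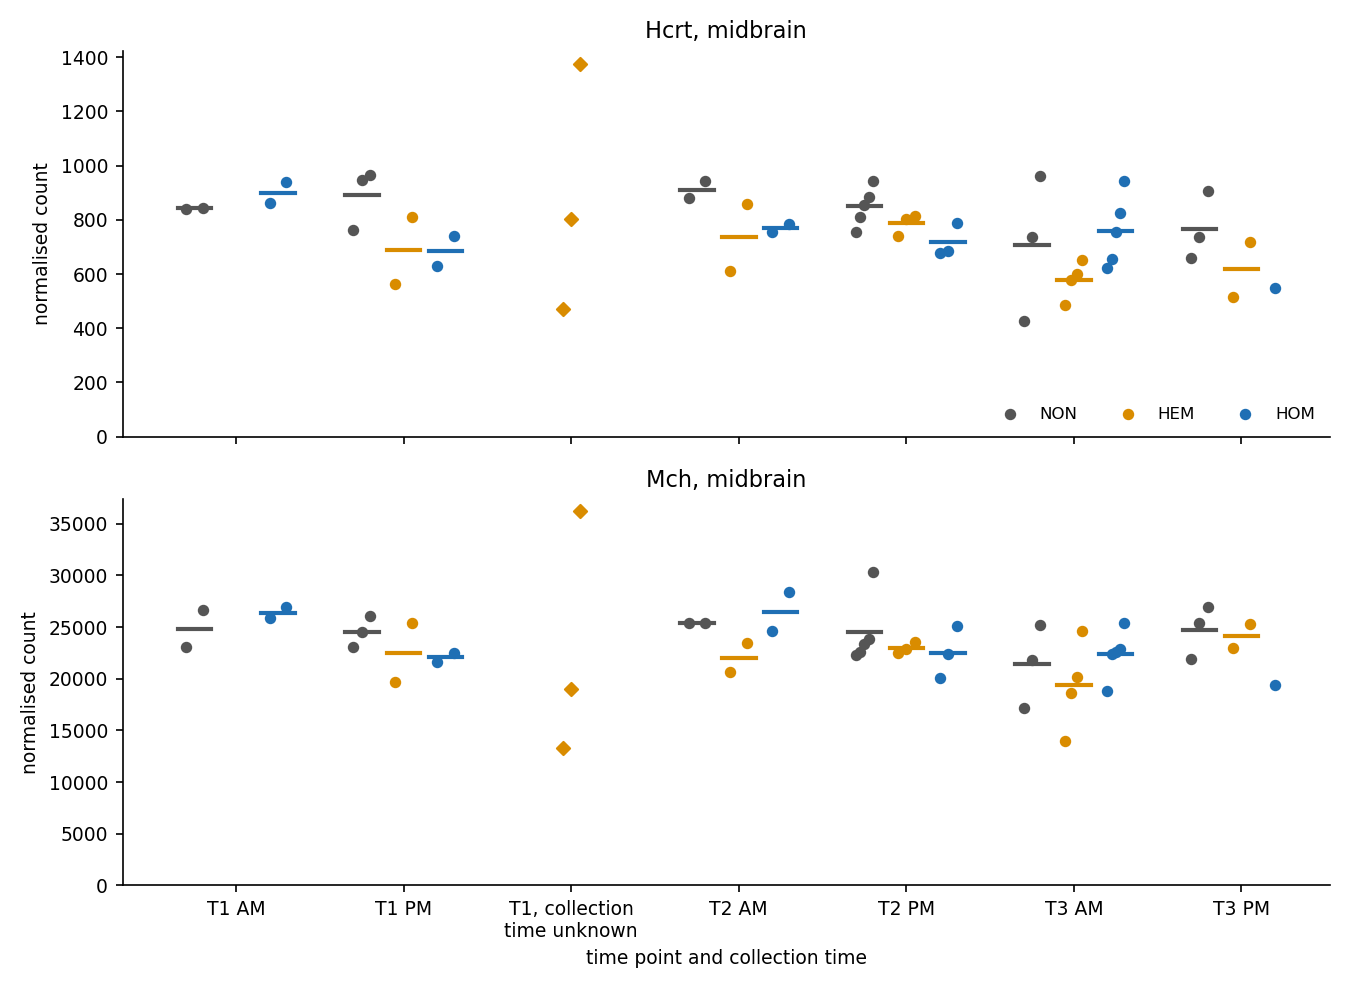
Normalised counts of Hcrt and Mch in each midbrain pool (linear axis), by time point, collection time and genotype, with a bar at each group mean and diamonds for the T1 HEM pools of unknown collection time. The HEM group means of Hcrt lie under the NON means in 5 of 5 groups, and single pools of the genotypes overlap.

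Averaged over its 5 groups, Hcrt in HEM was lower than in NON by a log2 fold change of -0.28 (SE 0.0914, 95% confidence interval -0.47 to -0.09, adjusted p = 0.0170, edgeR's quasi-likelihood test adjusted by Benjamini-Hochberg, 13 against 16 pools). The decrease had an interval of 6.33% to 27.6%. In this comparison 34.9% of the 43 genes were called, 32.6% (14 genes) higher and 2.33% (1 gene, Hcrt) lower, and the median over all genes was 0.04. With edgeR's TMM normalisation in place of the reference genes the split was 2 higher and 2 lower, and Hcrt remained among those called. Hcrt itself was at -0.34 with TMM and at -0.22 with the positive control probes. Its distance from the median of all genes was -0.32 with the reference genes, -0.33 with TMM and -0.32 with the positive control probes. That distance is no measure of stability, since a change of scaling moves all genes of a pool alike.

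The call in HEM was lost without T1 HEM PM pool 8 (adjusted p = 0.0683, edgeR) and without T3 HEM PM pool 7/9 (adjusted p = 0.0511), and the value ranged from -0.34 to -0.22 as each pool was left out. With the 3 T1 HEM pools of unknown collection time added, it was -0.20 (adjusted p = 0.145). These pools (1/2, 3/4 and 5/6) were far apart, at 803, 1376 and 473 normalised counts of Hcrt in the midbrain. The sum of the hypothalamic markers Agrp, Pomc and Hdc was 196, 750.5 and 142 in them, against a NON mean of 683, and its part in the value was not tested. Hcrt in HOM was at -0.19 over its 6 groups, of which T3 PM had 1 HOM pool (SE 0.0892, adjusted p = 0.207, edgeR, 15 against 18 pools), where 9.30% of genes were called, 6.98% higher and 2.33% lower. That the HEM and HOM values differ was not tested.

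Mch in the midbrain had 17184 to 30302 normalised counts in NON (median 24164, mean 24159 ± 2759 SD, n = 18), 14013 to 25362 in HEM (median 22835, mean 21819 ± 3182, n = 13) and 18851 to 28371 in HOM (median 22624, mean 23272 ± 2751, n = 15). The genotypes overlapped over most of their ranges, and the lowest pool, T3 HEM AM pool 1, was also the lowest HEM pool of Hcrt. The mean log2 fold change was -0.12 for HEM (SE 0.0688, adjusted p = 0.176, edgeR) and -0.07 for HOM (adjusted p = 0.710). Of the HEM pools, 10 of 13 were under the NON median of their group, and of the HOM pools 7 of 15.

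**Figure D3:**
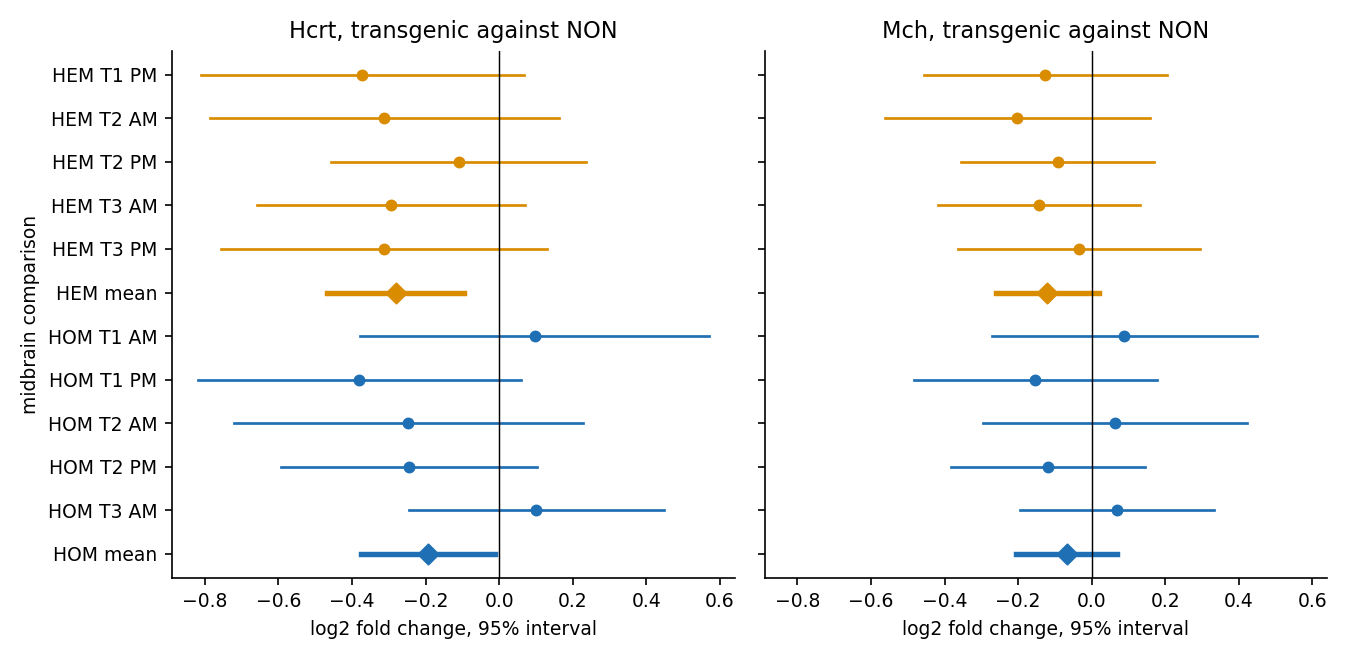
Log2 fold changes of Hcrt and Mch in the midbrain of HEM and HOM against NON, with 95% confidence intervals, for the 10 comparisons within a time point and collection time and, as diamonds, the mean, which for HOM also takes in T3 PM with its 1 HOM pool. The single comparisons have wide intervals that include 0. The interval of the mean excludes 0 for Hcrt in HEM, at -0.47 to -0.09, and in HOM, at -0.37 to -0.01. The HOM mean was not called after adjustment.

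Within a time point and collection time, 39 comparisons of a transgenic genotype with NON had at least 2 pools per group over the 4 blocks. By edgeR's quasi-likelihood test, 0 were called for Hcrt (0 at an unadjusted p under 0.05) and 0 for Mch (2 at an unadjusted p under 0.05), while 4.71% of the 1677 tests of all genes were called. DESeq2 and limma also called 0 for both, whereas scaling by the positive control probes called 1 for each, HOM T3 AM in the midbrain (Hcrt 0.33, adjusted p = 0.0403, and Mch 0.29, adjusted p = 0.0205, edgeR). In the midbrain the 10 log2 fold changes of Hcrt were between -0.38 and 0.10, with 8 below 0, and those of Mch between -0.20 and 0.09, with 7 below 0. The 5 HEM values of Hcrt were -0.37 (T1 PM), -0.31 (T2 AM), -0.11 (T2 PM), -0.29 (T3 AM) and -0.31 (T3 PM). As each pool was left out, they ran from -0.66 to -0.14, -0.58 to -0.09, -0.15 to -0.07, -0.56 to -0.01 and -0.57 to -0.09 in the same order. At T3 AM, Hcrt in HEM was called without NON pool 10 (-0.56, adjusted p = 0.0404, edgeR) and was at -0.01 without NON pool 7. As these comparisons share NON pools with those of HOM, they are not independent.

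The other feeding and energy genes of the midbrain were described beside the peptides. Npy, which stimulates feeding from the arcuate nucleus, was called higher in HEM (0.36, adjusted p = 0.0249, edgeR) as well as HOM (0.44, adjusted p = 0.0232), and it was the only called gene of the 5 in the feeding list, beside 34.9% of all genes called in HEM and 9.30% in HOM. Pomc was at 0.25 in HEM (adjusted p = 0.20), Agrp at -0.06, Cart at -0.08 and Mc4r, the receptor of α-MSH, at 0.08. The list median was 0.08 in HEM and -0.02 in HOM, beside 0.04 and -0.00 over all genes.

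Hdc was called lower in HOM (-0.24, adjusted p = 0.0232, edgeR), the only gene called lower there, and was at -0.14 in HEM (adjusted p = 0.138). The HOM call was lost with the positive control probes, under which 0 genes were called lower. The leptin and insulin receptors had 0 calls in either genotype, beside 34.9% of all genes in HEM and 9.30% in HOM, with Lepr-b, the signalling form of the leptin receptor, at -0.13 (adjusted p = 0.0798), Insr at 0.06 and Lepr at 0.04 in HEM. The summed level of the hypothalamic markers Agrp, Pomc and Hdc was 683 ± 102 normalised counts in NON (SD, n = 18), 723 ± 195 in HEM (n = 13) and 707 ± 159 in HOM (n = 15). Its members went different ways, as Pomc averaged 299.7 in NON and 360 in HEM, Hdc 274 and 252, and Agrp 109 and 111. The amount of hypothalamus in a block was not measured, and its part in the Hcrt difference was not tested.

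**Figure D4:**
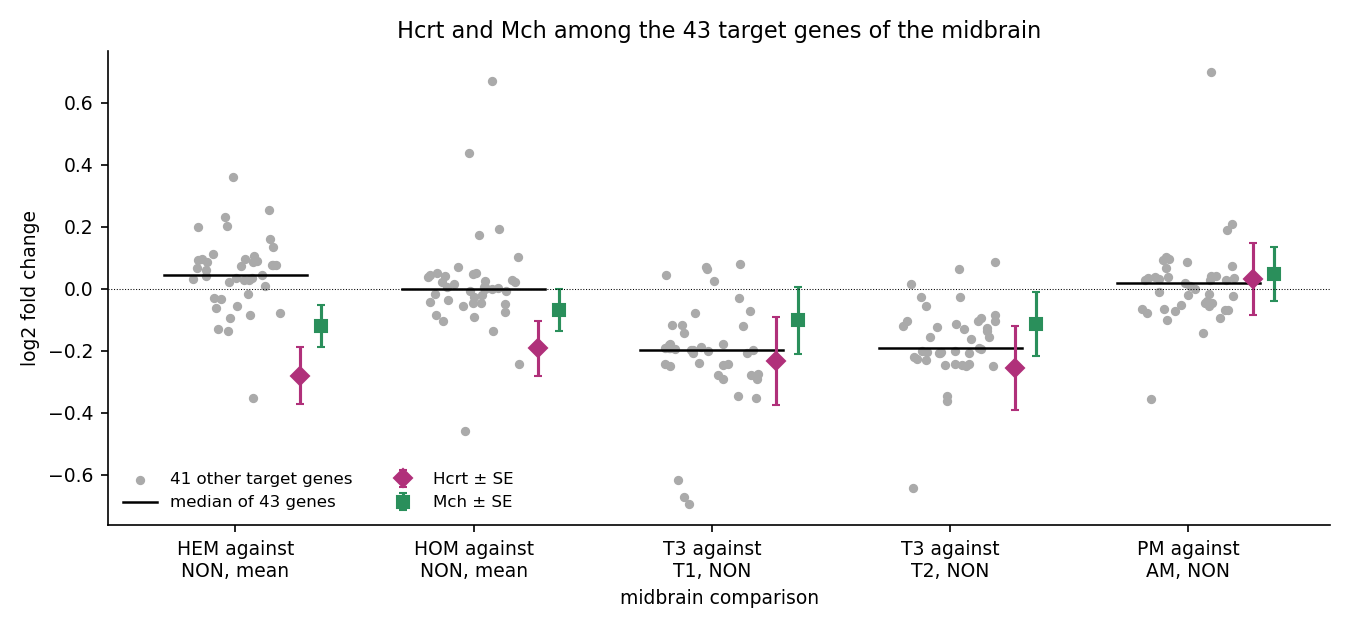
Log2 fold changes of all 43 genes in 5 midbrain comparisons, with a black line at the median and Hcrt and Mch drawn in colour with their SE. Hcrt in HEM, at -0.28, lies under the median of 0.04, whereas in the T3 comparisons of NON the median itself lies near -0.20.

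In the other blocks neither gene was called between genotypes with all pools. In the hindbrain, Hcrt averaged -0.44 for HEM (adjusted p = 0.212, edgeR) and -0.63 for HOM (adjusted p = 0.0688), and Mch -0.13 and -0.33 (adjusted p = 0.0688 for the latter), where 18.6% and 4.65% of genes were called. The HOM hindbrain values turned on single pools. Hcrt was at -0.77 without T1 NON AM pool 8/9 and at -0.32 without T1 NON AM pool 2/7. It was called with the mean of the negative probes subtracted (-1.68, adjusted p = 0.0346, edgeR). Mch was at -0.39 without pool 8/9, at -0.39 without T3 NON AM pool 4/11 and at -0.24 without pool 2/7. Leaving out any of these left a single NON pool in its group. Without pool 4/11 that was T3 NON AM pool 7, of low reference counts, with neither gene above background. The hindbrain averages also took in the T3 pools of low reference counts. In left cortex pools Hcrt was at -0.10 and -0.16 and Mch at -0.27 and -0.18, in HEM and HOM, where 2.33% and 9.30% of genes were called. In right cortex pools Hcrt was at -0.10 in both, and Mch at -0.03 and 0.08, where 0% and 6.98% were called.

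The third question was how the levels stood across T1, T2 and T3. In the NON midbrain, Hcrt had 763 to 966 normalised counts at T1 (median 843, n = 5), 756 to 943 at T2 (median 882, n = 7) and 427 to 961 at T3 (median 738, n = 6). All time points overlapped, and T3 had the widest spread. Hcrt was at 0.02 in T2 against T1, at -0.23 in T3 against T1 (SE 0.142, adjusted p = 0.172, edgeR) and at -0.26 in T3 against T2 (SE 0.136, adjusted p = 0.112). In these comparisons 0, 51.2% and 46.5% of the genes were called, all lower, and the median of all genes was -0.20 in T3 against T1 and -0.19 in T3 against T2. Relative to that median, Hcrt was at -0.04 and -0.06. Scaled by the positive control probes, T3 against T2 was called for Hcrt (-0.42, adjusted p = 0.00151, edgeR) and for Mch (-0.28, adjusted p = 0.00476).

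The NON T3 value of Hcrt depended on 2 pools of single mice. Without T3 NON AM pool 7, the highest T3 pool, Hcrt was called lower at T3 than at T1 (-0.37, adjusted p = 0.0207, edgeR) and than at T2 (-0.40, adjusted p = 0.0103). Without T3 NON AM pool 10, the lowest T3 pool, these values were -0.10 and -0.13, neither called. The 3 leptin and insulin receptors were called lower at T3 than at T1 (median -0.25), as was Hrh1 (-0.19). Of the 5 feeding genes 0 were called (median -0.14). Of all 43 genes 51.2% were called there, all lower, with a median of -0.20. With TMM, which sets the bulk of the genes to no change, 1 gene was higher and 0 lower in T3 against T1, in place of 0 and 22.

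Mch in the NON midbrain had 23024 to 26633 normalised counts at T1 (median 24491), 22336 to 30302 at T2 (median 23837) and 17184 to 26982 at T3 (median 23529). The ranges of Mch overlapped, but its T3 pools at 17184, 21807 and 21899 lay under every T1 and T2 pool. Its log2 fold changes were 0.01 in T2 against T1, -0.10 in T3 against T1 (adjusted p = 0.419, edgeR) and -0.11 in T3 against T2 (adjusted p = 0.379), which is 0.09 and 0.08 above the median of all genes in the T3 comparisons. In HOM, T3 against T1 was at -0.28 for Hcrt (adjusted p = 0.219, edgeR) and -0.21 for Mch, where 20.9% of genes were called. The difference of this change between HOM and NON was -0.05 for Hcrt (adjusted p = 0.916) and -0.11 for Mch (adjusted p = 0.801), where 0% were called.

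Of 19 comparisons of time points over all blocks, 0 were called for Hcrt and 1 for Mch. Mch in the NON right cortex was lower at T3 (54.5 to 99.5 normalised counts, median 91.3) than at T2 (85.8 to 141, median 114). The ranges overlapped, and the log2 fold change was -0.47 (SE 0.177, adjusted p = 0.0188, edgeR), where 65.1% of genes were called and the median of all genes was -0.37. The call was lost with TMM (-0.20, adjusted p = 0.317) and without T3 NON PM pool 8/9 (-0.40, adjusted p = 0.0599), T3 NON AM pool 10 (-0.37, adjusted p = 0.0730) or T2 NON AM pool 1/3 (-0.42, adjusted p = 0.0745). In the NON hindbrain Hcrt was at -1.12 in T2 against T1 (adjusted p = 0.0531, edgeR, 2.33% of genes called), and DESeq2 gave -1.13 (adjusted p = 0.0365). This value ran from -1.54 (adjusted p = 0.000239, without T1 NON AM pool 8/9) to -0.19 (adjusted p = 0.851, without T1 NON AM pool 2/7), and 2 of 12 such edgeR fits were called.

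Collection time was compared because orexin and melanin-concentrating hormone are tied to the daily cycle of sleep and feeding. In the paper, AM was late morning and PM early afternoon, only a few hours apart. The comparison therefore does not test a daily rhythm. In the NON midbrain, PM against AM was at 0.03 for Hcrt (SE 0.115, 95% confidence interval -0.20 to 0.27, adjusted p = 0.861, edgeR) and at 0.05 for Mch (SE 0.0874, interval -0.13 to 0.23). No gene was called in this comparison (0 of 43, and 1 at an unadjusted p under 0.05). Over the 8 midbrain groups of all genotypes that had both collection times, Hcrt was at -0.08 (adjusted p = 0.463) and Mch at -0.02 (adjusted p = 0.887), where 16.3% of genes were called. In the NON hindbrain Hcrt was at -0.64 (adjusted p = 0.203) and Mch at -0.52 (adjusted p = 0.0601), with 2.33% of genes called. As each pool was left out, Hcrt there ran from -0.92 (adjusted p = 0.0105, without T1 NON AM pool 8/9) to -0.02 (without T1 NON AM pool 2/7), with 1 of 18 edgeR fits called. Mch ran from -0.66 (without T3 NON AM pool 4/11) to -0.34 (without T1 NON AM pool 2/7), with 4 of 18 called. Without pool 4/11, its group held only T3 NON AM pool 7, of low reference counts, with neither gene above background. Of 21 comparisons of collection time, 0 were called by edgeR for either gene with all pools, with 2 for Hcrt and 3 for Mch at an unadjusted p under 0.05.

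At T3 the labels say which mice had been diabetic earlier. In the midbrain, 11 pools of previously diabetic mice, 3 of them NON, were set against 7 pools of mice that never were, with genotype and collection time in the model. Hcrt was at -0.07 (SE 0.154, adjusted p = 0.857, edgeR) and Mch at -0.04 (adjusted p = 0.904). The percentage of genes called was 2.33, which was Agrp, higher by 0.74 (adjusted p = 0.00368).

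The log2 ratio of Hcrt to Mch counts within a pool needs no reference gene, and its level depends on the 2 probes, so only its differences are of use. In NON, T3 pools differed from T1 pools by -0.17 (exact two-sided permutation p = 0.212, adjusted p = 0.283 over 4 tests, 6 against 5 pools) and PM from AM by 0.02 (exact permutation p = 0.817). The mean ratio was -5.03 in HEM and -4.88 in NON, a difference of -0.14 (permutation p = 0.0524, adjusted p = 0.210). In HOM the difference was -0.08 (permutation p = 0.193, adjusted p = 0.283). None passed the adjusted threshold. With the genotypes exchanged only within a time point and collection time, which was added after seeing the data, HEM was at -0.15 (permutation p = 0.0354, adjusted p = 0.0708) and HOM at -0.12 (permutation p = 0.0821).

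Between midbrain pools of a group, Hcrt and Mch varied together. Over 45 pools, the deviations of log2 normalised counts from the group mean had a Pearson r of 0.68 (permutation p = 0.00011, adjusted p = 0.00121 over 11 relations) and a Spearman rho of 0.67 (permutation p = 0.0002). Without the 2 pools farthest from the median of Hcrt, r was 0.60 (permutation p = 0.00066). It was 0.76 at T1 (11 pools, adjusted permutation p = 0.344), 0.66 at T2 (17 pools, 0.0645) and 0.68 at T3 (17 pools, 0.0311). Without the 2 farthest pools these values were 0.41, 0.69 and 0.54, so that the T1 value rested on those pools. Both values of a pool are divided by the same reference genes, and the part of this in r was not tested. With TMM r was 0.61 and with the positive control probes 0.51.

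The same correlation, added after seeing the data for the other blocks, was 0.55 in hindbrain (42 pools, adjusted permutation p = 0.0419), 0.28 in left cortex (43 pools, 0.344) and 0.07 in right cortex pools (45 pools, 0.703). Without the 2 farthest pools it was 0.42 in hindbrain, 0.13 in left cortex and 0.10 in right cortex pools. The hindbrain pools included the 3 of T3 with low reference counts, whose part in r was not tested. Spearman's rho in the hindbrain was 0.48 (adjusted permutation p = 0.0643). With the age of the mice at T2, which ran from 90 to 286 days, midbrain Hcrt had r = -0.12 (17 pools, adjusted permutation p = 0.703) and Mch r = 0.17 (0.629). Within the 7 NON pools r was 0.53 for Hcrt (adjusted permutation p = 0.344) and 0.35 for Mch (0.629). Without the 2 pools farthest from the median age, r was 0.11 for Hcrt and 0.38 for Mch over all T2 pools, and 0.51 and 0.17 in NON.

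**Figure D5:**
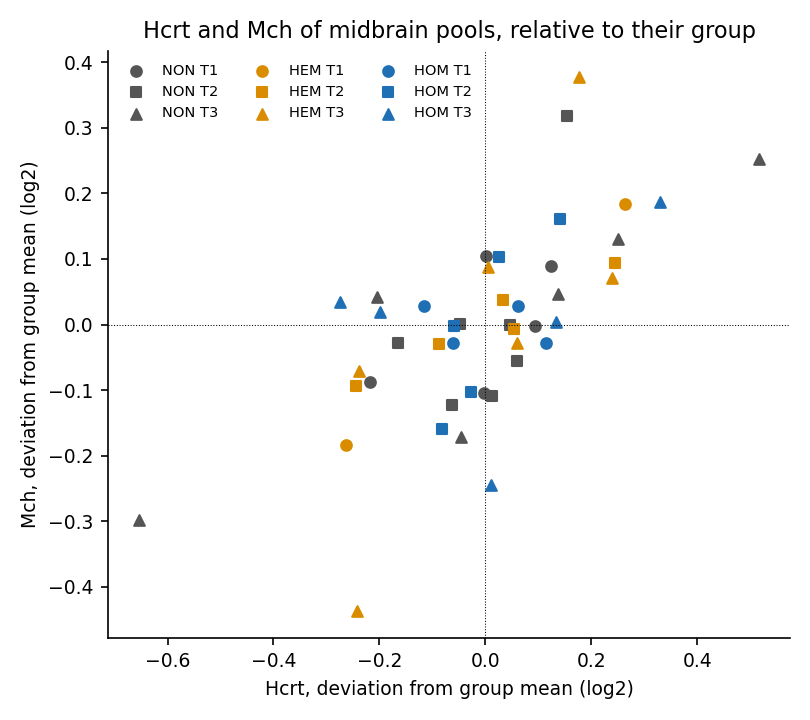
Deviation of each of 45 midbrain pools from the mean of its time point, genotype and collection time, on the log2 scale, for Hcrt (x axis) and Mch (y axis), with colour for genotype and shape for time point. Pools with more Hcrt than their group tended to have more Mch (r = 0.68).

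Over the same 45 pools, the genes whose deviations were most like those of Hcrt were Mch (r = 0.68), Hrh1 (0.67), Ramp3 (0.61), Akt1 (0.52) and c-Fos (0.42). The same genes led with TMM and with the positive control probes, but with these probes Ramp3 was at 0.32. The genes most like Mch were Ramp3 (0.70), Hcrt (0.68), Calcr (0.66), Hdc (0.48) and Hdac5 (0.46). With TMM and with the positive control probes, Cart took the place of Hdac5 among the 5. With these probes Calcr was first (0.66), before Hcrt (0.51) and Ramp3 (0.50), and Hdac5 was at 0.24. With the reference genes, no gene of the feeding list was among those named. Agrp was at -0.10 with Hcrt and -0.11 with Mch, Npy at 0.10 and -0.30, and Mc4r at 0.16 and 0.02. Pomc was at 0.18 and 0.25, and Cart at 0.24 and 0.32. With the positive control probes Agrp was at 0.03 and 0.12. These correlations are descriptions, since all genes of a pool share its reference genes and its dissection.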

How the data were processed

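The authors counted probes on the nCounter platform and deposited raw counts per pool, without background correction or normalisation, for 43 target genes, 3 reference genes, 6 positive and 8 negative control probes. Samples were grouped by their labels. Hcrt and Mch, the gene lists and the tests were chosen with earlier results of these data known. Counts were fitted in edgeR 4.0.16 (R 4.3.3) with the reference genes' geometric mean as library size and 1 coefficient for each combination of time point, genotype and collection time, per block for genotype, time and collection time, and in 1 model of the 4 blocks for regional differences. Contrasts averaged groups with equal weights. The quasi-likelihood test was adjusted by Benjamini-Hochberg over the 43 genes, and a gene was called at an adjusted p under 0.05. It was tested on simulated data with known changes for midbrain comparisons only, which does not cover the other blocks or the model of the 4 blocks. The p-values measure the spread between pools.

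Correlations and ratios used log2 of the normalised count plus 0.5 and of the raw counts, respectively, with two-sided permutation tests (exact, or 100000 permutations) in SciPy 1.17.1 (Python 3.11.15; NumPy 2.4.6; pandas 2.3.3), and figures were drawn in matplotlib 3.10.9. Named genes were Hcrt, Mch, the reference genes, 3 lists (hypothalamic feeding, neighbouring hypothalamic, leptin and insulin receptors), the 5 genes most like each peptide over midbrain pools, and the 3 genes of largest regional difference. Alternatives were TMM, positive control probes, the reference gene B2m left out, DESeq2 1.42.0, limma 3.58.1, background subtraction, the pool of mice or age-matched pools as blocks, and each pool left out. NanoStringDiff, the tool of the study, was not used here. Same-mouse pools of 2 blocks had a mean correlation of deviations over all genes of 0.347 between the cortices (33 of 41 above 0.1) and -0.0498 between hindbrain and midbrain (13 of 35). They come from the same mice, so the blocked fit was run. No 2 pools among 198 pairs were identical or within counting noise (lowest chi-square per degree of freedom 4.68). Results on 2 reference genes, and those that leave either out, are not reported here.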

Additional observations from a re-analysis of the deposited data

Results flagged for a closer look

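In 11 groups of 4 or 5 pools, tested for each gene (22 tests), 2 had a pool farther from the others than Dixon's 95% limit, where chance gives about 1 in 20. Both were T2 NON PM pool 6/9, which had 31.0 normalised counts of Hcrt in the right cortex (the others 26.6 to 27.5) and 30302 of Mch in the midbrain (the others 22336 to 23837).

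The T1 HEM pools of unknown collection time entered the tests only where they were added as an alternative, and several lay above the highest NON pool of T1. In the midbrain, pool 3/4 held 1376 normalised counts of Hcrt (NON 763 to 966) and 36209 of Mch (NON 23024 to 26633), while pool 5/6 held 473 and 13341 and pool 1/2 held 803 and 19010. The summed normalised counts of Agrp, Pomc and Hdc were 750.5 in pool 3/4, but 196 in pool 1/2 and 142 in pool 5/6, the lowest of all midbrain pools. In the hindbrain, pool 5/6 held 146 of Hcrt (NON 18.6 to 130) and pool 3/4 held 504 of Mch (NON 105 to 295). In the left cortex, pool 1/2 held 35.8 of Hcrt (NON up to 35.2) and pool 5/6 held 168 of Mch (NON 71.7 to 129). In the right cortex, pools 3/4 and 5/6 held 130 and 146 of Mch (NON 83.7 to 109). What sets these pools apart was not tested.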

How the results depend on the processing

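The 6 differences between the NON midbrain and the other blocks kept their direction and their call under every alternative run, including the block of the pool of mice (68 NON pools, 19 pools of mice), where they were 4.77, 4.92 and 4.82 for Hcrt and 7.36, 7.98 and 7.95 for Mch. The cause of the changes listed here was not tested. Hcrt in the hindbrain against both cortices was -0.44 with the positive control probes (adjusted p = 0.0193, edgeR) and -0.024 over all genotypes. It lost its call with the pool of mice as a block (0.10, adjusted p = 0.595), without B2m (0.20), with limma (0.20) and without the 3 low hindbrain pools (0.30, adjusted p = 0.0507). Mch there was -0.091 with the positive control probes. Mch in left against right NON cortex was -0.0014 with TMM, -0.30 with the positive control probes, -0.14 over all genotypes and -0.029 with the pool of mice as a block.

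With the positive control probes, which do not correct for RNA input, values of other sign were, for Hcrt, 0.13 in HEM hindbrain, -0.085 in HOM midbrain T1 AM, 0.069 in HOM T3 against T1, 0.036 and 0.29 in HEM and HOM left cortex and 0.22 in HOM right cortex. For Mch they were 0.47 and 0.079 in HEM and HOM hindbrain, -0.091, 0.064 and 0.067 in HOM midbrain at T1 AM, T2 PM and on average, 0.033 in HEM T3 AM, 0.14 in HOM T3 against T1, 0.022 in PM against AM of all genotypes, 0.28 in HOM left cortex, 0.0051 in HEM right cortex and 0.039 by diabetic history. NON T3 against T2 was then called for Hcrt (-0.42, adjusted p = 0.00151, edgeR) and Mch (-0.28, adjusted p = 0.00476), and within a group 1 comparison was called for each gene, HOM T3 AM in the midbrain, at 0.33 (adjusted p = 0.0403) and 0.29 (adjusted p = 0.0205). With TMM, HOM T3 AM was -0.0067 for Hcrt and -0.046 for Mch, Mch NON T3 was 0.088 against T1 and 0.025 against T2, Mch PM against AM 0.00053, and Hcrt NON right cortex T3 against T2 0.17. Without B2m, Mch was -0.027 in HOM T3 AM, 0.029 in HEM T3 PM and 0.031 in NON T3 against T1. With the T1 HEM pools of unknown collection time, Mch in HEM was 0.11 in the hindbrain and 0.14 in the right cortex, and Hcrt in HEM midbrain -0.20. With 3 SD in place of 2, Hcrt was above background in 19 left cortex pools in place of 33. The correlation of Hcrt and Mch was 0.28 and 0.069 in the left and right cortex. The replicate block of age-matched T2 pools changed no call, with Hcrt at -0.32 and -0.10 in HEM AM and PM and -0.24 and -0.27 in HOM.

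As each pool was left out, Hcrt in the midbrain ran from -0.34 to -0.22 in HEM (27 of 29 called), -0.24 to -0.15 in HOM (called without T3 NON AM pool 10, adjusted p = 0.0353, edgeR), -0.16 to 0.38 in HOM T3 AM, -0.056 to 0.13 in NON PM against AM, -0.028 to 0.053, -0.37 to -0.10 and -0.40 to -0.13 in T2 against T1, T3 against T1 and T3 against T2, and -0.26 to 0.029 by diabetic history. Hcrt in hindbrain against cortices ran from -0.012 to 0.44. Mch ran from -0.32 to 0.046 in HEM T1 PM, -0.12 to 0.034 in HEM T3 PM, -0.013 to 0.20, -0.042 to 0.16 and -0.066 to 0.20 in HOM T1, T2 and T3 AM, -0.038 to 0.067 in T2 against T1, -0.13 to 0.046 by diabetic history, -0.073 to 0.0086 in HEM right cortex and -0.027 to 0.045 between the cortices.

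Groups held 1 to 5 midbrain pools, and the SE of single midbrain comparisons of Hcrt was 0.17 to 0.23, close to the mean differences themselves. Hcrt was above background in only 37 of 46 hindbrain, 33 of 48 left cortex and 32 of 49 right cortex pools.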
